A study of Homo sapiens with 12 samples.

Results

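The D cyclins *CCND1*, *CCND2* and *CCND3*, their partner kinases *CDK4* and *CDK6*, the INK4 inhibitors *CDKN2A*, *CDKN2B* and *CDKN2C*, their substrate *RB1*, and *MTAP*, the neighbour of *CDKN2A*, were followed by gene symbol through RNA sequencing of 2 ccRCC cell lines. All 10 genes were found, each as a single entry, among the 58302 genes measured. The cells were 769-P and ACHN, established human lines that the labels describe as clear cell renal cell carcinoma. The labels give the genotype as NUF2 knockdown or control. They received si-NUF2, a mixture of siRNA2 and siRNA3 against the kinetochore gene *NUF2*, or the negative control si-NC, for 48 h. Each of the 4 groups had 3 libraries. The 769-P cells were grown in RPMI-1640 and the ACHN cells in Eagle's MEM, so the cell line and the medium cannot be told apart, and each line stands for 1 tumor. The values were FPKM (fragments scaled to the length of all annotated exons of a gene and to library size). They allow levels to be set side by side between genes only roughly, since the annotated exons can be longer than the RNA present.

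These genes control the passage from G1 into S phase. A D cyclin binds CDK4 or CDK6, and the active kinase phosphorylates the retinoblastoma protein, encoded by *RB1*, which then releases the E2F transcription factors that drive replication genes. The INK4 proteins bind CDK4 and CDK6 and keep the D cyclins away from them. *CDKN2A* encodes p16 from one start and the p53 activator ARF from another, and *CDKN2B*, which encodes p15, lies next to it on the short arm of chromosome 9. Homozygous deletion of this region is frequent in human tumors and often takes the methylthioadenosine phosphorylase gene *MTAP* along. DNA was not measured here, so only the RNA of the locus was followed, which does not show whether its DNA is present.

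The libraries held between 28926117 and 38309168 reads as recovered from the FPKM. NUF2 itself was at 17.8 to 19.4 FPKM with si-NC and 3.01 to 4.17 FPKM with si-NUF2 in 769-P, and at 11.6 to 15.0 and 2.16 to 5.14 FPKM in ACHN cells, with no overlap in either line. The kidney lineage factors *PAX8* and *PAX2* were present in every library at 5.52 FPKM or above, while the leukocyte marker *PTPRC* and the endothelial markers *PECAM1* and *CDH5* stayed at or under 0.0461 FPKM. *COL1A1* and *PDGFRB*, markers of fibroblasts and pericytes, passed the filter in ACHN cells. The 6 listed markers of other cells summed to 1.43 to 6.19 FPKM there and to 0.114 to 0.266 FPKM in 769-P. Of the 10 listed renal markers 9 were tested between the lines, with 2 called higher and 3 lower in 769-P, beside 61.4% of all genes called. *VHL*, among the lower, did not pass the filter within 769-P, and *CDH6*, among the higher, did not pass it within ACHN cells. Nothing is read from these calls. *CA9*, a marker of ccRCC, was at or under 0.121 FPKM in all 12 libraries. *VHL* was at or under 0.0322 FPKM in 769-P and between 14.9 and 25.1 FPKM in ACHN cells. Nothing in the sources used here says that same-group libraries came from separate cultures, so the p-values measure only the spread between these libraries. Because whole cultures were lysed, fewer cells expressing a gene and less of its RNA per cell cannot be told apart.

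The *CDKN2A* locus was examined first, in both lines and under both siRNAs. *CDKN2A* RNA was low but present in all 12 libraries, *MTAP* RNA was present in 769-P and practically absent from ACHN cells, and *CDKN2B* RNA was low in 769-P and higher in ACHN cells. The annotation places *MTAP* (ENSG00000099810) at 21802543 to 21937651 of chromosome 9 (GRCh38, forward strand), *CDKN2A* (ENSG00000147889) at 21967753 to 21995301 and *CDKN2B* (ENSG00000147883) at 22002903 to 22009363, both on the reverse strand. The reference sequence around the start of each gene, from RefSeq on GRCh38.p14, is shown because these 3 starts are neighbours whose RNA followed 3 different patterns between the lines. Each sequence has 300 bases across the annotated start and runs 5′ to 3′ on the strand of its gene, with capitals marking GGGCGG or its reverse complement CCGCCC, the letters of the GC box bound by SP1. MTAP lies at chr9:21802386-21802685 (forward), CDKN2A, at its p16 start, at chr9:21974808-21975107 (reverse) and CDKN2B at chr9:22009256-22009555 (reverse).
MTAP: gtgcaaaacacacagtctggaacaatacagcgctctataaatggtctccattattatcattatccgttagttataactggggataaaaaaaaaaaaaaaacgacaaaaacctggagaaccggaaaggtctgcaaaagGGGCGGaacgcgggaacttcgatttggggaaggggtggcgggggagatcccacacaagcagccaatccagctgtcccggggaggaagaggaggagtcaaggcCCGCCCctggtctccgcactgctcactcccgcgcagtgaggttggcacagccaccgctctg
CDKN2A: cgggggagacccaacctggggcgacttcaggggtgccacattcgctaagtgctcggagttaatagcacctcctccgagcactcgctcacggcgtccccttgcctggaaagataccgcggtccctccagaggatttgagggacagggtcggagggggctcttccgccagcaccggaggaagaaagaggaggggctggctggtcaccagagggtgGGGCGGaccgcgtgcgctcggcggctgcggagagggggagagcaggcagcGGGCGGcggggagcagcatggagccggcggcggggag
CDKN2B: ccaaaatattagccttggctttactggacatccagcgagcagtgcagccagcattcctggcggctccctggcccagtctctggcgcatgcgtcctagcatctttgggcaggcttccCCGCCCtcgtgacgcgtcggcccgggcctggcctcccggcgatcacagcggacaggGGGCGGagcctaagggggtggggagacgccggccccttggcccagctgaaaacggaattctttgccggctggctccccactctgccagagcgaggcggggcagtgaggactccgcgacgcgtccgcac
Each of the 3 windows held 2 such matches, and 45.0% of the 35116 promoter windows of the RefSeq table held at least 1. The windows of *CDKN2A* and *CDKN2B* held 26 and 25 CG dinucleotides and that of *MTAP* 15, against a median of 14 over all windows. The window at the ARF start of *CDKN2A*, further upstream, held 28 CG dinucleotides and 0 matches to the GC box. Binding and methylation were not measured.

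In 769-P *CDKN2A* was at 0.133, 0.216 and 0.235 FPKM with si-NC and 0.125, 0.233 and 0.180 FPKM with si-NUF2 (replicates 1, 2 and 3 throughout). The ACHN libraries held 0.486, 0.216 and 0.177 FPKM with si-NC and 0.297, 0.187 and 0.142 FPKM with si-NUF2. The 2 lines overlapped, and the highest values were those of ACHN replicate 1 under either siRNA. These levels rested on 17 to 33 reads in a 769-P library and 21 to 66 reads in an ACHN library, and 35.5% to 41.8% of protein-coding genes were lower. Under si-NC, 80 reads of 769-P stood against 129 of ACHN cells, a ratio of 0.694 after scaling to library depth (95% interval 0.518 to 0.925, exact, for counting error only), a difference that did not exceed the spread between libraries (p = 0.6, exact two-sided permutation test, where 3 libraries against 3 cannot go below 0.1). *CDKN2A* stayed under the filter of 0.5 FPKM and was not tested across genes. Its exons share 341 bases, 7.88% of their length, with those of the antisense *CDKN2B-AS1*, which was at 0.0411 to 0.181 FPKM, and whether the counting used strand is not given in the sources used here. Reads of p16, ARF and the antisense RNA therefore cannot be told apart.

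*MTAP*, which recycles the methylthioadenosine left over from polyamine synthesis, in 769-P was at 1.83, 1.85 and 1.74 FPKM with si-NC and 1.89, 1.70 and 1.67 FPKM with si-NUF2, from 715 to 868 reads in a library. In ACHN cells it had 1 read in si-NUF2 replicate 1 and 0 reads in the other 5 libraries. Against a floor of 3 reads in a library, *MTAP* was at least 306-fold higher in 769-P than in ACHN cells under si-NC. Under si-NC, *CDKN2B* was at 0.887, 0.930 and 1.31 FPKM in 769-P (1.04 ± 0.232, SD, n = 3) and ACHN cells had 35.1, 5.78 and 12.2 FPKM (17.7 ± 15.4, SD, n = 3). The 2 lines did not overlap, although the highest ACHN library exceeded the lowest 6.08-fold. The log2 difference was -3.57 for 769-P less ACHN (SE 0.599, adjusted p = 0.00203 by limma with Benjamini-Hochberg). It was -2.88 without ACHN replicate 1 and -4.17 without ACHN replicate 2, and stayed called with each si-NC library left out.

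The lack of *MTAP* RNA in ACHN cells extended towards the telomere and not to *CDKN2B*. Between the start of *MLLT3* and the end of *MTAP*, a stretch of 1.6 Mb of chromosome 9 (20341665 to 21937651) whose limits were set after the values were seen, the annotation holds 53 measured genes, 21 of them protein-coding. In 769-P, 20 of the 53 had a value above 0, with 3486 to 4436 reads in a library. In ACHN cells 5 of the 53 had a value above 0, with 1 to 9 reads in a library and a highest value of 0.0516 FPKM. *MLLT3*, a component of the super elongation complex, had a median of 5.39 FPKM over 6 libraries in 769-P and of 0.00328 FPKM over 6 in ACHN cells. *KLHL9*, a substrate adaptor of a CUL3 ubiquitin ligase, had medians of 5.96 and 0 FPKM. *FOCAD*, the gene of focadhesin, had medians of 1.77 and 0.00159 FPKM.

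On the other side, *DMRTA1* was at similar levels in both lines, with medians of 0.668 FPKM in 769-P and 0.592 FPKM in ACHN cells. *TUSC1*, *CAAP1* and *PLAA* were at 6.57 FPKM or above in every library of both lines. They were nevertheless called higher in 769-P under si-NC (log2 differences 0.59, 0.81 and 0.91). *ELAVL2*, an RNA-binding protein of neurons that lies between *DMRTA1* and *TUSC1*, had 62 to 114 reads in each 769-P library and 0 reads in all 6 ACHN libraries. Of the 19 listed neighbours on both sides, 8 were tested under si-NC, with 6 called higher and 1 lower in 769-P. Over all genes 61.4% were called. *MLLT3*, *KLHL9* and *FOCAD* passed the filter through 769-P only, and the 1 lower gene through ACHN cells only. *IFNA1*, *IFNW1* and *IZUMO3* had 0 reads in both lines, which says nothing of the locus. *MLLT3* was the outermost listed gene towards the telomere, so where the silent stretch ends on that side was not determined. What separates the silent stretch from its neighbours was not tested, since RNA does not show whether the DNA is present.

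The levels of the other members under si-NC were then compared between the lines. Of the 10 genes, 9 passed the filter, and 5 were called by limma at an adjusted p under 0.05, whereas 61.4% of all 15377 genes tested were called, so that a call between these lines was common. *CCND2* and *MTAP* passed the filter through 1 line only and had to differ, which leaves 3 of the other 7 called. *CCND1* and *RB1* were higher in 769-P, *CDKN2B* was higher in ACHN cells, and *CCND3*, *CDK4*, *CDK6* and *CDKN2C* were not called. This comparison shares its si-NC libraries with the comparisons of the siRNAs below.

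Cyclin D1 was the dominant D cyclin of 769-P. *CCND1* (ENSG00000110092, chromosome 11, 69641087 to 69654474) in the 769-P si-NC libraries was at 298, 238 and 266 FPKM (267 ± 30.2, SD, n = 3), above 99.4% or more of protein-coding genes. Its exons share 10.3% of their length with *ORAOV1* on the other strand, which was at 2.56 to 5.59 FPKM over the 12 libraries. The ACHN libraries were at 110, 27.7 and 75.3 FPKM (70.9 ± 41.2, SD, n = 3). All 769-P libraries were above all ACHN libraries, with a log2 difference of 2.15 (SE 0.467, adjusted p = 0.00645 by limma with Benjamini-Hochberg). *CCND2* (ENSG00000118971, chromosome 12, 4273772 to 4305350), which encodes cyclin D2, had 3, 0 and 3 reads in the si-NC libraries of 769-P and 3423 to 5146 reads in those of ACHN cells, where it was at 22.9, 13.4 and 13.6 FPKM. With 12276 reads in ACHN cells and 6 in 769-P, the ratio after scaling to library depth was 1828 (95% interval 840 to 4982, exact, for counting error only). *CCND3* (ENSG00000112576, chromosome 6, 41934933 to 42050357), which encodes cyclin D3, was at 16.3, 15.1 and 15.0 FPKM in 769-P and at 12.2, 34.0 and 19.4 FPKM in ACHN cells, overlapping, with a log2 difference of -0.34 (SE 0.337, adjusted p = 0.407 by limma with Benjamini-Hochberg). Without ACHN replicate 1 it was -0.69 and called (adjusted p = 0.0456 by limma with Benjamini-Hochberg), and without ACHN replicate 2 it was 0.05.

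The make-up of the D cyclin pool differed between the lines. *CCND1* gave 94.0% to 94.8% of the summed D cyclin FPKM in the si-NC libraries of 769-P and 36.9% to 75.8% in those of ACHN cells. *CCND2* gave at most 0.00461% in 769-P, against 12.6% to 17.9% in ACHN cells, while *CCND3* gave 5.19% to 5.98% and 8.41% to 45.2%. The share of *CCND3* in ACHN cells was lowest in replicate 1 and highest in replicate 2 under both siRNAs.

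The kinases were closer to each other. *CDK4* (ENSG00000135446, chromosome 12, 57747727 to 57756013) under si-NC was at 54.8, 55.5 and 55.7 FPKM in 769-P and at 56.6, 85.6 and 80.2 FPKM in ACHN cells. Every ACHN library was above every 769-P library, yet the log2 difference of -0.37 was not called (SE 0.16, adjusted p = 0.0841 by limma with Benjamini-Hochberg). Without ACHN replicate 1 it was -0.54, with an adjusted p of 0.00251 by limma with Benjamini-Hochberg. Of the exon length of *CDK4*, 43.2% is shared with *TSPAN31* on the other strand, which was at 2.29 to 7.02 FPKM over the 12 libraries, and reads of the shared part cannot be told apart. *CDK6* (ENSG00000105810, chromosome 7, 92604921 to 92836594) was at 19.8, 16.1 and 18.9 FPKM in 769-P and at 14.5, 15.4 and 22.2 FPKM in ACHN cells, overlapping, with a log2 difference of 0.12 (SE 0.18, adjusted p = 0.588 by limma with Benjamini-Hochberg). *CDK4* made up 73.5% to 77.5% of the summed FPKM of the pair in 769-P, against 78.3% to 84.7% in ACHN cells.

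Of the other members, *CDKN2C* (ENSG00000123080, chromosome 1, 50960745 to 50974633), which encodes the INK4 inhibitor p18, had 3.17, 3.28 and 3.74 FPKM in the 769-P si-NC libraries, and 3.19, 10.8 and 4.65 FPKM in the ACHN ones. The ranges overlapped, and the log2 difference was -0.64 (SE 0.409, adjusted p = 0.213 by limma with Benjamini-Hochberg), or -1.0 and called without ACHN replicate 1 (adjusted p = 0.0453 by the same test). *RB1* (ENSG00000139687, chromosome 13, 48303726 to 48599436) was at 16.9, 13.7 and 17.8 FPKM in 769-P and at 8.89, 8.82 and 11.7 FPKM in ACHN cells. It was higher in every 769-P library, with a log2 difference of 0.74 (SE 0.158, adjusted p = 0.00591 by limma with Benjamini-Hochberg).

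Among the INK4 genes, *CDKN2C* and *CDKN2D*, which encodes p19, led in 769-P, and *CDKN2B* led in 2 of the 3 si-NC libraries of ACHN cells. *CDKN2C* gave 42.7% to 44.4% and *CDKN2D* 37.3% to 43.5% of the summed INK4 FPKM with si-NC in 769-P, and *CDKN2B* gave 28.1% to 83.5% in ACHN cells. *CDKN2A* gave 1.80% to 2.82% in 769-P, against 0.927% to 1.15% in ACHN cells.

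**Figure D1:**
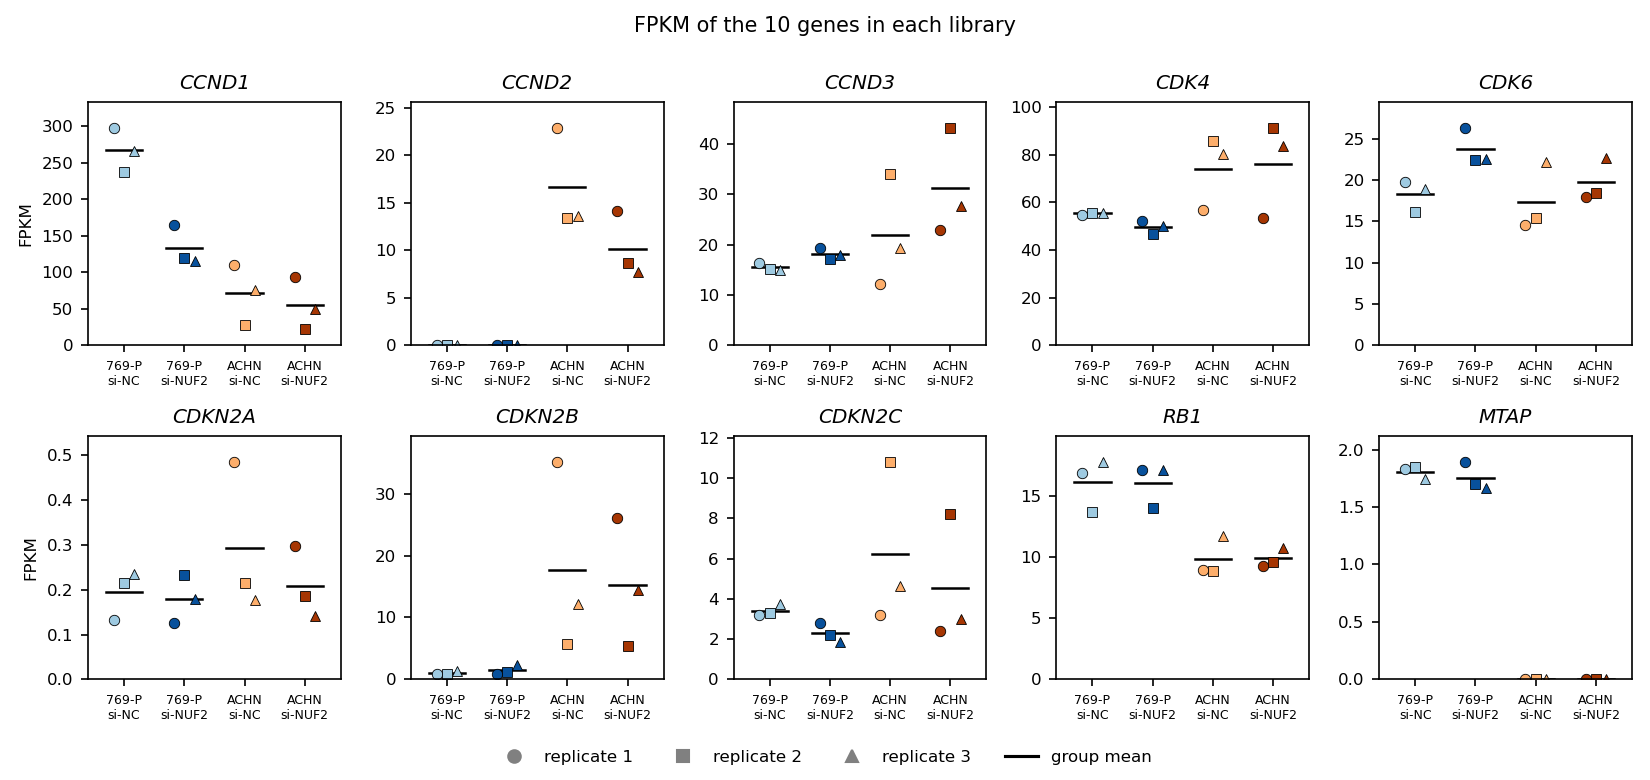
FPKM of each of the 10 genes in each of the 12 libraries, with circles, squares and triangles for replicates 1, 2 and 3 and a bar at the group mean; each vertical axis starts at 0 and has its own scale. *CCND1* falls with si-NUF2 in 769-P, and *CCND2* and *MTAP* lie at or next to 0 in one line each. The ACHN libraries keep their order by replicate number under both siRNAs for *CCND1*, *CCND3*, *CDK4*, *CDK6*, *CDKN2A*, *CDKN2B* and *CDKN2C*, but not for *CCND2* and *RB1*.

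In 769-P cells, *CCND1* fell with si-NUF2 to 49.8% of its si-NC mean, and it was the 1 member called of the 8 tested, whereas 10% of all 14160 genes tested were called. With the replicate number as a block, which the correlation of same-numbered libraries allows in both lines, *CCND1*, *CCND3* and *CDK6* were called, 3 of 8, against 27.5% of all genes. The si-NUF2 libraries held 165, 119 and 115 FPKM of *CCND1* (133 ± 27.7, SD, n = 3). All 3 libraries were below the lowest si-NC library, and the same-numbered pairs differed by -0.85, -1.0 and -1.21 on the log2 scale. The log2 fold change was -1.01 (SE 0.154, adjusted p = 0.0134 by limma with Benjamini-Hochberg, 0.00465 with the block). Without si-NC replicate 3 the adjusted p was 0.0522 by the same test without the block, and in 1 fit of all 12 libraries, which shares the wider spread of ACHN cells, it was 0.332. Fold changes here and below are on the scale of log2(FPKM + 0.1), which understates the change of low genes.

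The other D cyclin of 769-P and *CDK6* moved the other way by less. *CCND3* was at 19.4, 17.1 and 18.0 FPKM with si-NUF2, above each si-NC library, a log2 fold change of 0.24 (SE 0.079, adjusted p = 0.107 by limma with Benjamini-Hochberg, 0.0227 with the block). *CDK6* was at 26.4, 22.5 and 22.6 FPKM with si-NUF2, again above each si-NC library, a log2 fold change of 0.39 (SE 0.106, adjusted p = 0.0629 by limma with Benjamini-Hochberg, 0.0115 with the block). Both calls with the block depend on the libraries kept. Without both libraries numbered 2 the block left *CCND1* as the 1 member called, beside 1422 of 13546 genes. Without those numbered 1 it called *CCND1*, *CDK6* and *CDKN2C*, beside 2355 of 13583 genes. The share of *CCND1* in the D cyclin FPKM was 86.5% to 89.5% with si-NUF2, below the si-NC range, and that of *CDK6* in the kinase pair was 31.0% to 33.5%, above its si-NC range of 22.5% to 26.5%.

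*CDK4* was at 52.4, 46.8 and 50.2 FPKM with si-NUF2 in 769-P, below each si-NC library by a narrow margin, and was not called (log2 fold change -0.14, SE 0.066, adjusted p = 0.208 by limma with Benjamini-Hochberg, 0.0899 with the block). *CDKN2C* was at 2.79, 2.20 and 1.85 FPKM, also below each si-NC library. Its log2 fold change of -0.56 was not called (SE 0.157, adjusted p = 0.0675 by limma with Benjamini-Hochberg, 0.0538 with the block), but limma-voom on the recovered reads gave an adjusted p of 0.0463. *CDKN2B* was at 0.872, 1.13 and 2.32 FPKM, overlapping with si-NC, and without si-NUF2 replicate 3 its log2 fold change moved from 0.35 to -0.04. *RB1* and *MTAP* differed least, with log2 fold changes of 0.01 (SE 0.129) and -0.03 (SE 0.108). *CCND2* and *CDKN2A* stayed under the filter in 769-P.

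In ACHN cells, the replicates differed more than the siRNAs did. *CCND1* was at 93.7, 22.7 and 49.5 FPKM with si-NUF2 against 110, 27.7 and 75.3 FPKM with si-NC, so that the highest si-NC library exceeded the lowest 3.96-fold while the si-NUF2 mean was 78.0% of the si-NC mean. Without the block, 0 of the 8 members tested were called, as were 0% of all 15116 genes (limma with Benjamini-Hochberg). At an unadjusted p under 0.05 there were 0 members and 1238 genes, and limma-voom without the block also called 0. With the block, *CCND2*, *CCND3* and *CDKN2C* were called, 3 of 8, against 12.2% of all genes. Limma-voom with the block called these 3 with *CCND1* and *CDK6*, against 3353 of all 14564 genes it tested.

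*CCND2* was at 14.2, 8.65 and 7.71 FPKM with si-NUF2, lower than the same-numbered si-NC library by 0.69, 0.63 and 0.81 on the log2 scale, although the groups overlapped. Its log2 fold change of -0.69 had an SE of 0.305 without the block and 0.0546 with it (adjusted p = 0.639 and 0.0118 by limma with Benjamini-Hochberg). *CCND3* was at 23.0, 43.3 and 27.8 FPKM with si-NUF2, higher than its pair by 0.91, 0.35 and 0.51, a log2 fold change of 0.61 (adjusted p = 0.826 by limma with Benjamini-Hochberg, 0.0376 with the block). *CDKN2C* was at 2.38, 8.23 and 3.01 FPKM, lower than its pair by 0.41, 0.39 and 0.61, a log2 fold change of -0.45 (adjusted p = 0.962 by limma with Benjamini-Hochberg, 0.0263 with the block).

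These calls rested on few libraries. Without the libraries numbered 1, *CCND2* was the 1 member called with the block, beside 204 of 14412 genes. Without those numbered 2 *CCND2* and *CCND3* were called, beside 953 of 14357 genes. Without those numbered 3 none of the 8 members was called, with 0 genes called in all and 3425 at an unadjusted p under 0.05. *CCND1* was lower with si-NUF2 in each pair, by 0.23, 0.28 and 0.60 (log2 fold change -0.35, adjusted p = 0.989 by limma with Benjamini-Hochberg, 0.0556 with the block). *CDK6* was at 18.0, 18.5 and 22.7 FPKM with si-NUF2, higher than its pair by 0.31, 0.26 and 0.03 (adjusted p = 0.898 by limma with Benjamini-Hochberg, 0.102 with the block). *CDK4* was at 53.5, 91.4 and 83.6 FPKM, *CDKN2B* at 26.0, 5.34 and 14.4 FPKM and *RB1* at 9.29, 9.61 and 10.7 FPKM, and each had pairs of both signs. The D cyclin pool had less *CCND2* in every pair, with a share of 9.08% to 11.6% under si-NUF2, below the si-NC range of 12.6% to 17.9%.

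**Figure D2:**
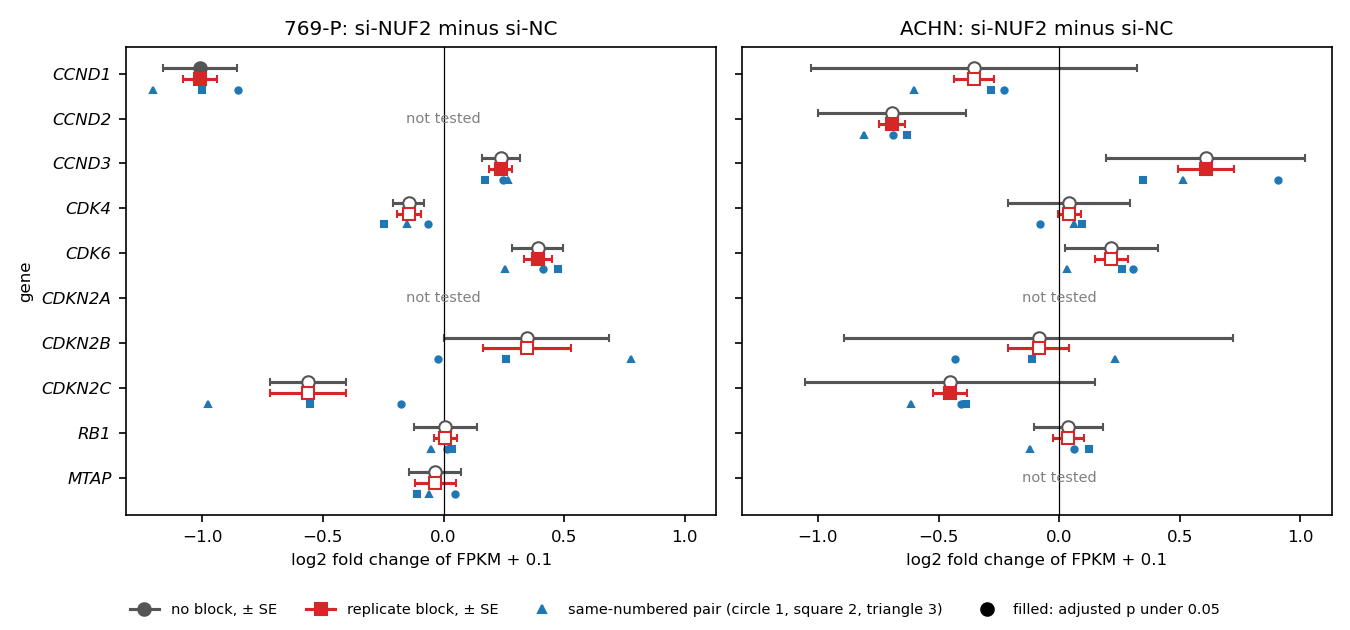
Log2 fold changes of FPKM + 0.1 for si-NUF2 against si-NC in 769-P (left) and ACHN cells (right), with SE bars without the block (circles) and with it (squares), filled where the adjusted p is under 0.05, and the same-numbered pairs in small marks below. *CCND1* in 769-P is the 1 filled circle, and in ACHN cells the bars shrink with the block.

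The difference in response between the lines was tested as an interaction term over all 12 libraries. None of the 9 members tested was called, as were 0% of all 16570 genes by limma with Benjamini-Hochberg, and 0 members and 772 genes had an unadjusted p under 0.05. With the block, again 0 of 9 members were called, against 1.39% of all genes. There 4 members had an unadjusted p under 0.05, beside 3261 of all 16570 genes. *CCND2*, among these 4, and *MTAP* passed the filter only through the line where they are expressed. Their terms set a response in that line against values near 0 in the other, so nothing is read from them. The log2 fold change of *CCND1* in 769-P less that in ACHN cells was -0.65 (SE 0.751, or 0.127 with the block, adjusted p = 0.999 and 0.0682 by limma with Benjamini-Hochberg). Limma-voom on the recovered reads with the block called *CCND1* alone of the members (log2 difference -0.63, adjusted p = 0.00274), beside 1010 of 15951 genes. Limma-voom without the block called 0 members. The response of *CCND3* differed by -0.36 (SE 0.451, or 0.14 with the block) and that of *CDK6* by 0.18 (SE 0.23, or 0.0944 with the block), so a difference between the lines was not shown for either.

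Inhibitors of the CIP/KIP family, which bind the cyclin-bound kinases, were looked at beside the INK4 genes. Of the 4 other inhibitors, *CDKN1B* and *CDKN1C* fell in 769-P, and *CDKN1A* and *CDKN2D* were not called, 2 of 4 against 10% of all genes (median log2 fold change -0.34, against -0.0106 over all genes tested). *CDKN1B*, which encodes p27, had 17.5 ± 2.74 FPKM with si-NC and 11.5 ± 0.310 FPKM with si-NUF2 (SD, n = 3 each, log2 fold change -0.58, SE 0.116, adjusted p = 0.0268 by limma with Benjamini-Hochberg). *CDKN1C*, which encodes p57, was at 0.748, 1.69 and 1.65 FPKM with si-NC and 0.246, 0.417 and 0.314 FPKM with si-NUF2 (log2 fold change -1.71, SE 0.34, adjusted p = 0.0268 by the same test). Neither pair of groups overlapped. *CDKN1C* passed the filter of 0.5 FPKM through its si-NC libraries only, so a fall was built in. Nothing is read from its lack of overlap or from its part in the 2 of 4.

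In ACHN cells 0 of these 4 were called without the block by limma with Benjamini-Hochberg (1 had an unadjusted p under 0.05), and with it *CDKN1A*, the p53 target that encodes p21, was called at -0.78 (adjusted p = 0.0189), 1 of 4 against 12.2% of all genes. *CDKN1A* was at 281, 141 and 112 FPKM with si-NC and 141, 100 and 59.6 FPKM with si-NUF2 in ACHN cells, and at 163 to 200 FPKM in all 769-P libraries. At baseline *CDKN1B* was the 1 inhibitor of the 4 called between the lines, against 61.4% of all genes, with 67.4 ± 18.0 FPKM in the ACHN libraries (SD, n = 3, log2 difference -1.89, adjusted p = 0.000285 by limma with Benjamini-Hochberg).

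Genes downstream of RB1 and E2F were higher in 769-P than in ACHN cells. All 15 listed genes were called higher in 769-P under si-NC by limma with Benjamini-Hochberg, beside 61.4% of all genes called in either direction, with a median log2 difference of 1.26 against 0.0281 over all genes. They ran from 0.67 for *MCM7* and 0.74 for *RRM2* to 1.92 for *MCM3* and 2.29 for *E2F1* itself. With si-NUF2 in 769-P, 0 of the 15 were called without the block by limma with Benjamini-Hochberg. There 3 had an unadjusted p under 0.05, beside 3891 of all 14160 genes. With the block 4 were called, *MCM3*, *RRM1* and *TYMS* higher and *RRM2* lower, with a median of 0.08 over the 15. That share was close to the 27.5% of all genes called with the block. In ACHN cells 0 were called without the block, with 10 at an unadjusted p under 0.05 beside 1238 of all 15116 genes. The block took the number called to 10 of the 15, all higher, against 12.2% of all genes. The median was 0.45 against 0.00615 over all genes tested. In ACHN cells *E2F1* was at 0.81 on the log2 scale (adjusted p = 0.238 by limma with Benjamini-Hochberg, 0.0241 with the block), and *TK1* had 0.37 (0.776 and 0.0434). The difference of response had a log2 value under 0 for all 15 genes. By limma with Benjamini-Hochberg 0 of them were called, with or without the block. At an unadjusted p under 0.05 there were 5 without the block and 13 with it, beside 772 and 3261 of all 16570 genes.

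Of the 9 later G1/S cyclins, kinases and activators, 0 were called by limma with Benjamini-Hochberg in either line without the block. There 4 in 769-P and 1 in ACHN cells had an unadjusted p under 0.05, beside 3891 of 14160 and 1238 of 15116 genes. With the block, *MNAT1* and *CDC37* were higher and *CCNE2* and *CCNA2* lower in 769-P (log2 fold changes 0.29, 0.33, -0.38 and -0.25). In ACHN cells *CDC25A*, *CDK2* and *CDC37* were higher with it (0.54, 0.34 and 0.30). These were 4 of 9 against 27.5% of all genes in 769-P, and 3 of 9 against 12.2% in ACHN cells. *CDC37* encodes the chaperone that loads CDK4 onto HSP90, and *CDK2* encodes the partner of cyclin E. Under si-NC, 5 of the 9 were called, all higher in 769-P, a share near the 61.4% of all genes, with *CCNE2* at 2.22 and *CCNE1* at 0.95. The other pocket proteins *RBL1* and *RBL2* were not called for si-NUF2 in either line, and *RBL1* was higher (0.71) and *RBL2* lower (-0.31) in 769-P under si-NC.

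Of the 8 genes for the turnover of D cyclins, 7 were tested. *CUL4B*, a scaffold of the ligase that with the receptor *AMBRA1* marks D cyclins for degradation, fell in 769-P (log2 fold change -0.65, SE 0.0838, adjusted p = 0.00961 by limma with Benjamini-Hochberg) and was called at -0.50 in ACHN cells with the block (adjusted p = 0.0267). That was 1 of 7 in each, against 10% of all genes in 769-P and, with the block, 12.2% in ACHN cells. The other 6 were called in neither line, with or without the block, and ran from *FBXO4* at -0.14 to *CUL4A* at 0.13 in 769-P, and from *FBXO4* at -0.23 to *AMBRA1* at 0.15 in ACHN cells.

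Around *MTAP*, 12 genes of methionine salvage and the PRMT5 complex were measured, since loss of MTAP is known to raise the substrate that inhibits PRMT5. Under si-NC, 8 of the 12 were called, a share near the 61.4% of all genes. All 8 were higher in 769-P, and the median log2 difference was 0.54 against 0.0281 over all genes. *APIP* (1.53) and *WDR77* (1.46) were highest, and *PRMT5* (-0.08) and *ADI1* (-0.11) lowest. With si-NUF2 *MRI1*, the next enzyme of the salvage pathway after MTAP, fell in 769-P (log2 fold change -0.75, SE 0.105, adjusted p = 0.0113 by limma with Benjamini-Hochberg), and with the block *MAT2A*, *APIP* and *ENOPH1* were called lower too, 4 of 12, near the 27.5% of all genes. In ACHN cells 0 of the 12 were called without the block by limma with Benjamini-Hochberg (0 had an unadjusted p under 0.05), and *SRM* was called with it (0.20, adjusted p = 0.0471), 1 of 12 against 12.2% of all genes.

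The fall of *CCND1* in 769-P came with a rise of interferon-stimulated genes in the same libraries, a list taken from genes already known to move here. Of 10 listed genes 7 were tested, and all 7 were called higher with the block (2 without it), against 27.5% and 10% of all genes, with a median log2 fold change of 2.30. Since the list was chosen for its change, nothing is read from that count. Their summed FPKM was 97.4 to 357 with si-NUF2 and 29.5 to 68.1 with si-NC in 769-P, against 44.8 to 62.0 and 47.3 to 70.8 in ACHN cells. Its part in the change of *CCND1* was not tested. Markers of other cells summed to 0.114 to 0.266 FPKM over 6 genes in the 769-P libraries and to 1.43 to 6.19 FPKM in the ACHN libraries, mostly from *COL1A1* and *PDGFRB*, which were highest in replicate 2 under both siRNAs. Of the members, *CCND3*, *CDK4* and *CDKN2C* were also highest in replicate 2 in ACHN cells under both siRNAs, as were *CDKN1B* and *CDKN2D* outside the members. The part of these markers in that order was not tested.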

How the data were processed

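RNA was sequenced in 12 libraries, 3 for each cell line and siRNA, grouped as the labels give them. The authors deposited FPKM, 1 value per gene and library. Their submitters' processing notes name HISAT2 2.0.5, featureCounts 1.5.0-p3 and hg38, the methods name fastp and DESeq2, and the strand setting is not given in the sources used here. Gene positions and exon lengths were those of GENCODE release 29. Reads were recovered as whole multiples (within 0.05) of the value of 1 read for 34984 of 36305 genes above 0 and 96.3% of the values checked. At this depth the spread between replicates limits precision for well expressed genes and counting error for low ones; intervals cover counting error only.

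FPKM were TMM-scaled within each comparison (trimming 0.3 of log ratios and 0.05 of levels; factors 0.974 to 1.02) and log2(FPKM + 0.1) of genes at 0.5 FPKM or more in at least 3 libraries was fitted with limma 3.58.1 in R 4.3.3 (eBayes with a trend). P-values were adjusted over all genes tested by Benjamini-Hochberg, and an adjusted p under 0.05 was a call. The siRNAs were compared in each line, the lines under si-NC, and the responses by an interaction. Single levels had an exact permutation test. The members and lists were chosen with earlier results of these data known. All 10 members are given; of longer lists, the ends by fold change and the genes called are named. The replicate numbers of the labels pair the libraries within a line: deviations from the group means correlated at 0.19 to 0.355 between same-numbered libraries in 769-P and at 0.46 to 0.735 in ACHN cells, but at -0.0553 to 0.0425 between the lines. What a number stands for is not given. No library of a group was a copy of another (chi-square per gene at least 14.5 over 12 pairs). Alternatives were pseudocounts of 1 and 0.01, no filter on low values, FPKM as deposited, median-ratio scaling, all 12 libraries in 1 fit, limma-voom on recovered reads, the replicate block, an adjusted p under 0.01 and each library left out. Limma-voom with the block, and the block without both libraries of 1 number, were added after seeing the data. The fits were tested on simulated data. A few genes outside the members are not reported here. Other steps ran in Python 3.11.15 (SciPy 1.17.1, pandas 2.3.3, matplotlib 3.10.9, NumPy 2.4.6).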

Additional observations from a re-analysis of the deposited data

How the results depend on the processing

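In 769-P, 1 of the 8 members tested was called. An adjusted p under 0.01 or 1 fit of all 12 libraries left 0, beside 175 of 14160 and 771 of 14208 genes. Limma-voom called 3 (*CCND1*, *CDK6* and *CDKN2C*), beside 1810 of 13661 genes. With the replicate block 3 were called (*CCND1*, *CCND3* and *CDK6*), beside 3897 of 14160 genes. Limma-voom with the block called 4, beside 4987 of 13661 genes. The block without both libraries numbered 1 or numbered 3 called 3 each, beside 2355 of 13583 and 2919 of 13559 genes. Leaving out each library in turn gave 0 (without si-NC replicate 3, beside 443 of 13902 genes) to 2. The 2 came without si-NUF2 replicate 1, which added *CDKN2C*, beside 684 of 13925 genes. In ACHN cells, 0 were called, and 0 under every setting without the block. With the replicate block there were 3, beside 1843 of 15116 genes, and with limma-voom and the block 5, beside 3353 of 14564. With the block and without both libraries numbered 1, 2 or 3 there were 1, 2 and 0. Beside them, 204 of 14412, 953 of 14357 and 0 of 14279 genes were called. Between the lines 5 members were called, beside 9446 of 15377 genes, and 4 to 7 with each library left out, beside 7301 to 8142 genes. With the block and without those numbered 2 or 3 there were 3, beside 6057 of 12976 and 3967 of 13061 genes. In these 2 fits *CCND2* and *MTAP* no longer passed the filter. Leaving out a single library likewise took *MTAP* (for a 769-P library) or *CCND2* (for an ACHN library) out of the test. The replicate block left the difference of response at 0 member calls, beside 230 of 16570 genes. Limma-voom with the block gave 1 (*CCND1*), beside 1010 of 15951 genes. The block changed no other call of a member. Small log2 values turned sign. In 769-P, *RB1* was -0.0004 on FPKM as deposited, and with the block and without those numbered 2 *RB1* was -0.0068 and *MTAP* 0.004. In ACHN cells with the block, *CDKN2B* was 0.0701 without those numbered 1 and *RB1* -0.0055 without those numbered 2. Between the lines with the block, *CCND3* was 0.0699 without those numbered 2 and *CDK6* -0.0535 without those numbered 1. The difference of response of *CCND2* was -0.0373 by limma-voom and -0.2306 with its block, where 769-P had 8 reads in all. Leaving out each library in turn moved *CDKN2B* from -0.0364 to 0.6192 and *RB1* from -0.106 to 0.1094 in 769-P. In ACHN cells it moved *CCND1* from -0.9221 to 0.1756, *CDK4* from -0.1468 to 0.2701, *CDKN2B* from -0.6921 to 0.5908, *CDKN2C* from -0.9763 to 0.0386 and *RB1* from -0.0308 to 0.1713. It moved *CCND3* from -0.6866 to 0.0509 between the lines. The difference of response ran from -0.4114 to 0.0062 for *CDK4*, -0.0053 to 0.2994 for *CDK6*, -0.241 to 1.049 for *CDKN2B*, -0.5891 to 0.4284 for *CDKN2C* and -0.1523 to 0.0695 for *RB1*. In all, 130 values of single members or counts kept their direction and side of the threshold in 769-P, 128 in ACHN cells, 152 between the lines and 172 for the difference. In the same order, 7, 13, 3 and 16 turned sign, and 12, 11, 4 and 1 gained a call. In 769-P 3 lost a call. The causes were not tested. Depth limits *CDKN2A* and, in 1 line each, *CCND2* and *MTAP*; for the others the spread between replicates does.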

Other observations

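Across the 12 libraries, with the mean of each line taken out, 7 members could be compared with 12933 genes that passed the filter in both lines. The points share libraries, and in ACHN cells the replicate number, so the values are a description. *CCND1* ran closest with *TM4SF19*, *VPS37A* and *NIPA1* (Pearson r 0.977, 0.977 and 0.973 over 12 libraries). *CCND3* ran closest with *RPGRIP1L*, *CCDC34* and *PUM3* (r 0.968, 0.967 and 0.957). *CDK4* ran closest with *MPHOSPH9*, *TMEM5* and *OSBPL8* (r 0.975, 0.97 and 0.968), and among the genes closest to *CDK6* were *PWP1* and *VTI1A* (r 0.927 and 0.916). *CDKN2B* ran closest with *VAMP4*, *CAPZB* and *GPAT4* (r 0.964, 0.964 and 0.959), and *RB1* with *USP14*, *ZDHHC6* and *ERGIC2* (r 0.959, 0.923 and 0.902). Among the genes closest to *CDKN2C* were *MYH10* and *GRTP1* (r 0.965 and 0.961). Among the members, *CDKN2B* and *CDKN2C* ran against each other (r -0.859), as did *CCND1* and *CCND3* (r -0.828) and *CDK4* and *CDKN2B* (r -0.827), while *CDK4* and *CDKN2C* ran together (r 0.737).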
